A study of Bos taurus with 48 samples.

Results

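The microRNAs bta-miR-221 and bta-miR-222 were followed through 48 small RNA sequencing libraries of cattle. They were taken by name from a table of 524 bovine miRNAs, so they make up 2 of its 524 rows, and each has 1 row without an arm suffix. The libraries came from mammary parenchyma (15 samples), the part of the gland that holds the epithelial ducts, from the mammary fat pad around it (16 samples) and from liver (17 samples). Within each tissue the samples carried 1 of 3 feeding labels, which were milk replacer ad libitum, a restricted amount of milk replacer, and control. Each tissue had 6 ad libitum and 6 restricted samples, and control samples numbered 3 for parenchyma, 4 for the fat pad and 5 for the liver. The sources used here do not give what the control animals were fed, nor the age of the animals. All tissues were taken after slaughter and kept in RNA Later, so each sample is a piece of bulk tissue from a dead animal at a single time point.

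A miRNA is a short RNA that guides the silencing complex to messenger RNAs, mainly through the bases near its 5′ end, the seed. miR-221 and miR-222 are a conserved pair made from neighbouring hairpins, and they share a seed, so they are known to bind largely the same messenger RNAs. Their best known targets are CDKN1B, the cell cycle inhibitor p27, and KIT, the receptor of stem cell factor. They are known from endothelial cells, from vascular smooth muscle, and from breast cancer cell lines of the basal kind, where they repress the oestrogen receptor ESR1. In the RefSeq annotation of the cattle assembly ARS-UCD2.0, the genes MIR222 and MIR221 are neighbours on chromosome X, and both lie within the long noncoding RNA gene LOC132344329. No other annotated miRNA gene lies within 50 kb of them. The sources used here do not name the assembly behind the deposited values, so the annotation served only for names and neighbours.

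The values are normalized read counts, that is, reads per mature miRNA divided by 1 size factor per library. In each library the values were whole multiples of 1 step (tolerance 0.01), so counting the steps estimates its miRNA reads. The estimate ranged from 6193678 to 11291532 in parenchyma, from 2123962 to 9522666 in the fat pad and from 826776 to 5146724 in liver. Behind the values of miR-221 stood 3607 to 27864 reads in parenchyma, 852 to 7283 in the fat pad and 123 to 1628 in liver. For miR-222 it was 1509 to 8813 reads, 290 to 2083 reads and 25 to 372 reads in the same order of tissues. Both miRNAs were above 0 in all 48 libraries.

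The 3 control parenchyma libraries stood apart from the other parenchyma libraries in their epithelial miRNAs. Over a list of 10 such miRNAs (the miR-200 family, the miR-183 cluster, miR-205 and miR-375) control replicates 1, 2 and 18 had mean log2(value + 1) levels of 3.76, 2.46 and 3.66. The same mean lay between 10.85 and 11.81 in the 12 parenchyma libraries of the milk replacer groups and between 0.42 and 3.03 in the 16 fat pad libraries. The labels of these 3 libraries therefore go against their epithelial content. Tissues were compared over the milk replacer samples for that reason, with the control samples given apart. The labels number the samples without saying that a number is an animal, so p-values measure the spread between these samples. In bulk tissue, fewer cells of a type and less of the RNA per cell cannot be told apart.

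miR-221 was highest in parenchyma, lower in the fat pad and lowest in liver. In the 12 parenchyma samples of the milk replacer groups its lowest, median and highest normalized read counts were 7324, 8619 and 9648. In the 12 fat pad samples they were 2951, 3905 and 4797, and in the 12 liver samples 762, 1470 and 2181. None of the 3 ranges overlapped another. As a share of the reads of a library, the mean of miR-221 was 0.256% ± 0.035 (SD, n = 12) in parenchyma, 0.0860% ± 0.0138 in the fat pad and 0.0256% ± 0.0089 in liver. Ranked by value within a library, miR-221 took places 51 to 59 among all miRNAs in parenchyma, 69 to 83 in the fat pad and 104 to 145 in liver.

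miR-222 followed the same order of tissues at lower values. Its lowest, median and highest normalized read counts were 1454, 2470.0 and 3055 in parenchyma. In the fat pad they were 788, 1104 and 1357, and in liver 155, 277 and 915. Parenchyma did not overlap the fat pad or the liver. The liver and the fat pad overlapped through 1 liver sample, restricted replicate 4, at 915. The other liver samples of the milk replacer groups ended at 474, below the lowest fat pad sample. The mean share of the library was 0.0746% ± 0.0186 (SD, n = 12) in parenchyma, 0.0239% ± 0.0053 in the fat pad and 0.0061% ± 0.0037 in liver.

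**Figure D1:**
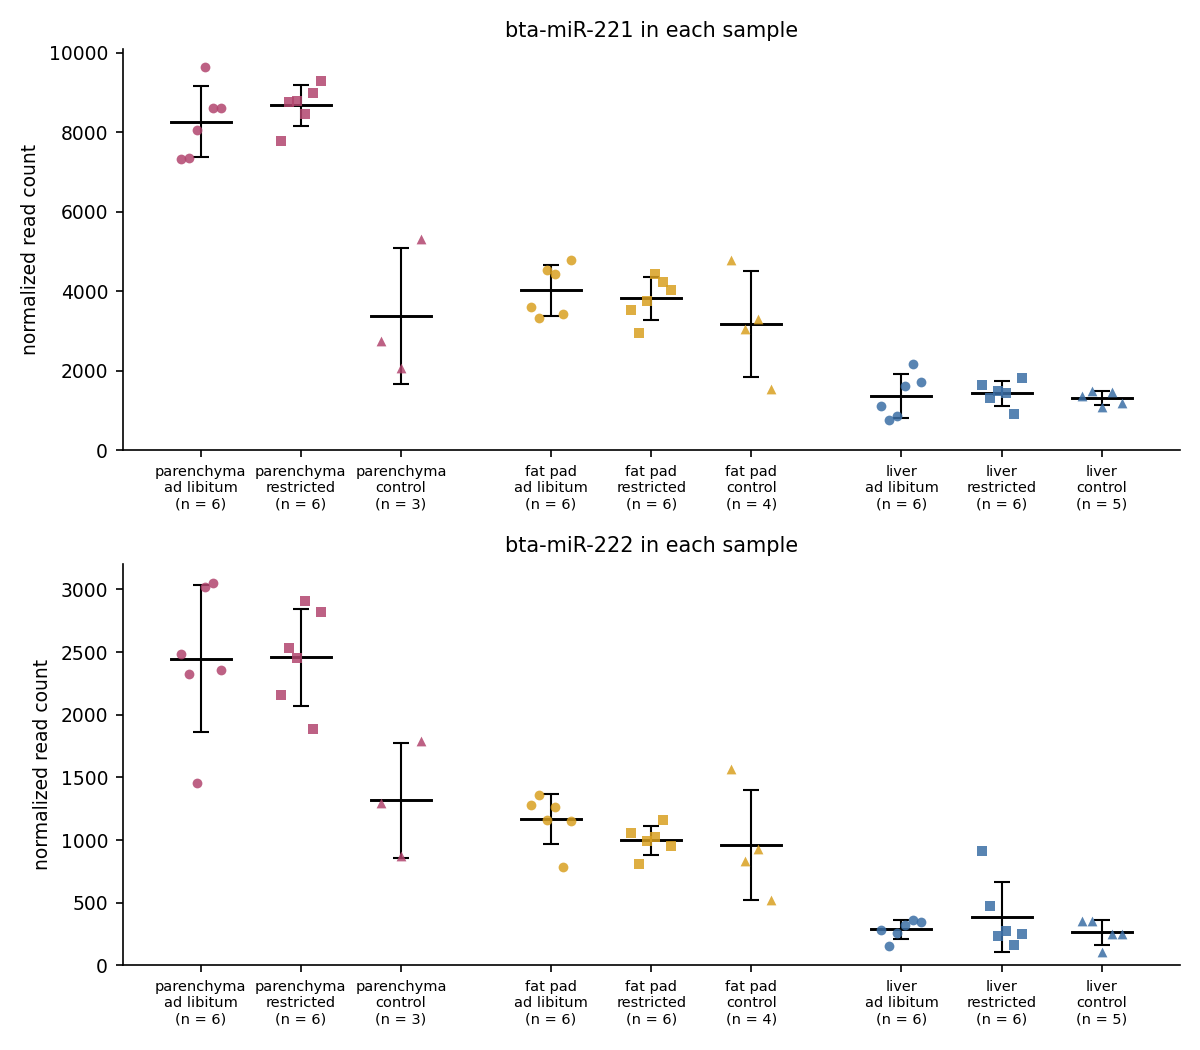
Normalized read counts of bta-miR-221 (top) and bta-miR-222 (bottom) on linear axes, with 1 point per sample in 9 groups of tissue and feeding, a line at the mean and bars of 1 SD. The 12 parenchyma samples of the milk replacer groups sit above all other samples for miR-221 (7324 to 9648), and the 3 control parenchyma samples lie lower, at 2086, 2758 and 5324.

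Parenchyma exceeded the fat pad by 1.12 ± 0.08 for miR-221 and by 1.17 ± 0.12 for miR-222 (log2 fold change on the log2(value + 1) scale ± SE). These are folds of 2.17 and 2.25, and limma gave adjusted p-values of 6.58e-12 and 2.00e-09. Of 336 miRNAs tested, 83.0% passed an adjusted p of 0.05 in this comparison, 50.3% as higher in parenchyma, and 33.3% had groups that did not overlap, so passing is common here. Of the miRNAs that passed, 60.6% were higher, and 71.5% with libraries rescaled to the same sum. Over all miRNAs tested the median was 0.37, and both members lay above it.

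The liver was lower than parenchyma by 6.28-fold for miR-221 and 8.01-fold for miR-222. The log2 fold changes were -2.65 ± 0.14 (limma adjusted p = 1.31e-14) and -3.0 ± 0.21 (limma adjusted p = 2.33e-12). Here 76.4% of 343 miRNAs passed, 45.5% as lower in liver, 40.2% had groups that did not overlap, and the median of all miRNAs tested was -0.39. Of those that passed, 40.5% were higher in liver, and 25.3% and 21.6% with libraries rescaled to the same sum or the same upper quartile. Against the fat pad, the liver was lower by 2.89-fold for miR-221 and 3.56-fold for miR-222. The log2 fold changes were -1.53 ± 0.15 and -1.83 ± 0.21, with limma adjusted p-values of 1.59e-09 and 1.65e-08. In that comparison 76.5% of 327 miRNAs passed, 40.1% as lower in liver, 36.4% had groups that did not overlap, and the median of all was -0.20. Of those that passed, 47.6% were higher in liver, and 34.2% with the upper quartile. Rescaling libraries to the same sum or the same upper quartile moved the median of all miRNAs to 0.70 and 0.68 for parenchyma against fat pad, to -0.95 and -1.18 for liver against parenchyma, and to -0.46 and -0.74 for liver against fat pad. miR-221 moved with it to 1.58 and 1.44, -3.39 and -3.51, and -1.81 and -2.07, and each of these passed. With the control samples included, both members still passed in each of the 3 comparisons, and miR-221 of parenchyma exceeded that of the fat pad by 0.89 on the log2 scale.

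Lists of cell type markers also differed between the tissues, some in the direction of the pair and some against it. Their part in these tissue differences was not tested. Of all 336 miRNAs tested between parenchyma and fat pad, 50.3% were higher in parenchyma and 32.7% were lower. All 10 epithelial miRNAs were higher in parenchyma than in fat pad. Their summed normalized read counts lay between 61371 and 110903 in parenchyma, between 6539 and 22525 in liver, and between 17.4 and 436 in fat pad, where 4 of the 10 were at 0 in all 12 samples. The arms of miR-126, the endothelial miRNA, went the other way from miR-221 and miR-222 between the mammary tissues. Both arms were lower in parenchyma, where their sum ran from 52569 to 106702, than in the fat pad, where it ran from 254628 to 431282. In liver that sum ran from 89178 to 285190, although miR-221 and miR-222 were lowest there. Of 6 smooth muscle and stromal miRNAs, 1 was higher (16.7%) and 3 were lower (50%) in parenchyma than in the fat pad. Their sums were 371599 to 510404 and 497190 to 814376. In liver, 4 of the 6 were lower than in parenchyma (66.7%, beside 45.5% of all miRNAs tested). Against the fat pad, 5 were lower in liver (83.3%, beside 40.1%), and 1 was higher in liver in each comparison (16.7%). Of all miRNAs tested, 30.9% were higher in liver than in parenchyma and 36.4% were higher in liver than in the fat pad. All 6 adipocyte-linked miRNAs were lower in parenchyma, with sums of 1193 to 16785 against 33336 to 88244. Of 7 immune miRNAs, 4 were higher (57.1%) and 1 was lower (14.3%) in parenchyma, with sums of 6705 to 15777 against 3508 to 5094. In liver, 6 of the 7 were higher (85.7%) and 1 was lower (14.3%) than in either mammary tissue, beside the shares of all miRNAs given above. Of the 3 erythroid miRNAs, 2 were tested between the mammary tissues, and both were lower in parenchyma. In liver, 3 were higher than in parenchyma (100%, beside 30.9%) and 2 were higher than in the fat pad (66.7%, beside 36.4%). The 4 hepatocyte miRNAs identified the liver samples, with sums of at least 884709 there and of at most 7967 in the mammary samples of the milk replacer groups.

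Over all 9 groups of tissue and feeding, the restricted and ad libitum parenchyma groups led the order for both miRNAs. For miR-221 the means were 8686 ± 515 (SD, n = 6) in restricted and 8271 ± 887 (n = 6) in ad libitum parenchyma, and these neighbours overlapped. A step of 4244 normalized read counts followed, the only place in the order at which neighbouring groups did not overlap. Below it came the ad libitum fat pad at 4027 ± 636 (n = 6), the restricted fat pad at 3828 ± 537 (n = 6), control parenchyma at 3389 ± 1709 (n = 3) and the control fat pad at 3178 ± 1330 (n = 4), each overlapping the next. The liver groups closed the order at 1442 ± 311 (restricted, n = 6), 1376 ± 556 (ad libitum, n = 6) and 1323 ± 180 (control, n = 5).

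For miR-222 every group overlapped its neighbour in the order. Restricted and ad libitum parenchyma had means of 2459 ± 389 (SD, n = 6) and 2449 ± 585 (n = 6). Control parenchyma took the third place at 1318 ± 458 (n = 3), ahead of the ad libitum fat pad at 1167 ± 202, the restricted fat pad at 999 ± 116 and the control fat pad at 963 ± 439. The liver groups had means of 385 ± 280 (restricted), 288 ± 75.9 (ad libitum) and 264 ± 102 (control). Over the 12 milk replacer samples of a tissue, the coefficient of variation of the normalized read count was 8.55% for miR-221 and 19.3% for miR-222 in parenchyma. In the fat pad it was 14.5% and 16.6%, and in liver 30.6% and 60.1%. Restricted replicate 4 carried the liver value of miR-222, since without it, an alternative chosen after seeing the data, both miRNAs had 32.1%. Within single groups miR-222 varied more in 4 of the 6 and less in the restricted fat pad (11.6% against 14%) and the ad libitum liver (26.4% against 40.4%).

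Between tissues of the control group, parenchyma and fat pad were not told apart. Control parenchyma had miR-221 at 2758, 2086 and 5324 in replicates 1, 2 and 18, and the control fat pad had 4787, 3065, 3319 and 1539 in replicates 2, 18, 19 and 21. These groups overlapped throughout. The log2 fold change of parenchyma over fat pad was 0.09 with a 95% confidence interval of -1.0 to 1.18 (limma adjusted p = 0.931). For miR-222 control parenchyma had 1294, 873 and 1787 and the control fat pad had 1569, 833, 927 and 524. The log2 fold change was 0.50 with an interval of -0.53 to 1.53 (limma adjusted p = 0.490). In this comparison 6 of 319 miRNAs passed (1.88%), 23.8% had groups that did not overlap, and the intervals include differences as large as those found in the milk replacer samples.

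The control liver was below both mammary tissues of the control group. Its 5 samples, replicates 1, 2, 18, 19 and 21, had miR-221 at 1364, 1507, 1088, 1467 and 1188. For miR-222 they had 352, 358, 107, 249 and 253. Neither miRNA overlapped control parenchyma or the control fat pad. Against control parenchyma the log2 fold changes were -1.25 ± 0.38 for miR-221 (limma adjusted p = 0.0376) and -2.37 ± 0.47 for miR-222 (limma adjusted p = 0.00519), with 22.6% of 337 miRNAs passing, 10.7% as lower in liver, and 27.6% without overlap. Of those passing, 52.6% were higher in liver, and 40.2% and 24.8% under the same rescalings. The call for miR-221 was lost when parenchyma replicate 1 or any of the 5 liver replicates was left out, with adjusted p-values of up to 0.0941, and miR-222 passed in each of these cases. With the replicate number as a block, neither miRNA passed (limma adjusted p = 0.244 and 0.111) and 21 miRNAs were called in place of 76. Against the control fat pad the log2 fold changes were -1.16 ± 0.28 (limma adjusted p = 0.00375) and -1.87 ± 0.39 (limma adjusted p = 0.00150), with 64.2% of 316 miRNAs passing, 30.7% as lower in liver, and 54.1% without overlap.

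**Figure D2:**
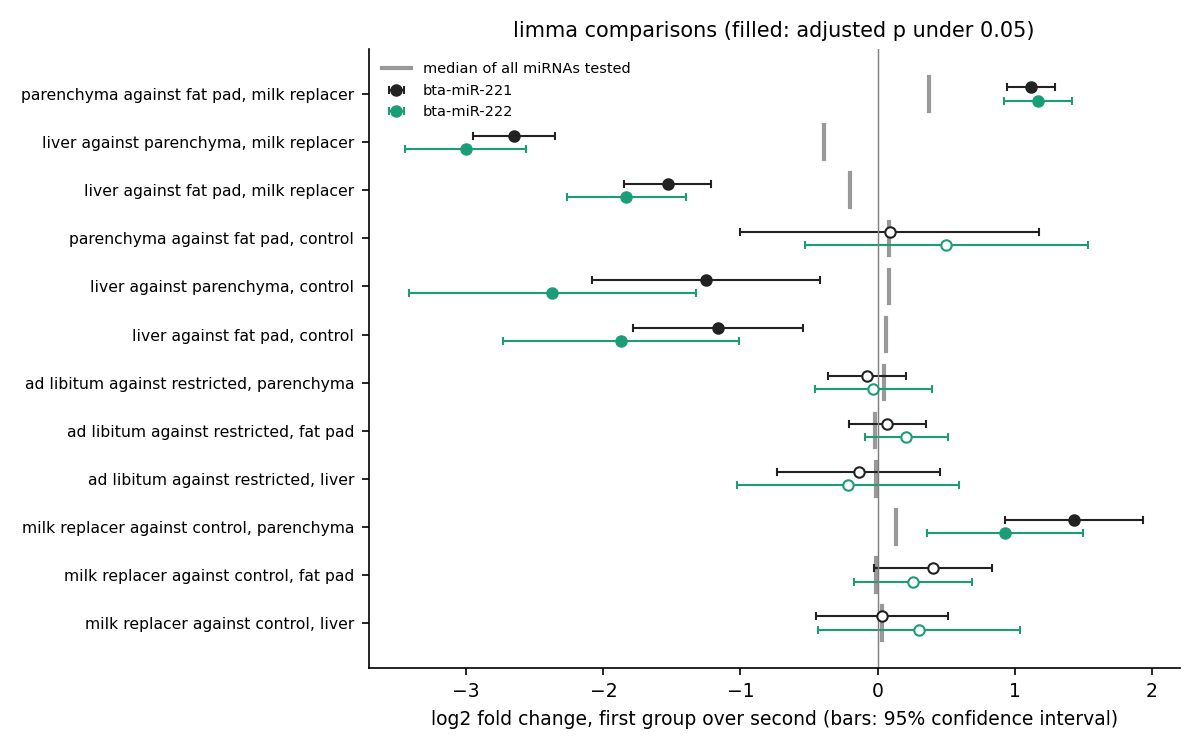
Log2 fold changes on the log2(value + 1) scale (horizontal axis) of miR-221 (black) and miR-222 (green) in 12 comparisons, with 95% confidence intervals as bars, filled points for a limma adjusted p under 0.05 and a grey mark at the median of all miRNAs tested. Both miRNAs pass in the 3 tissue comparisons of the milk replacer groups, and in parenchyma of the milk replacer groups against control, at 1.43 and 0.93. Both also pass in control liver against control parenchyma and against the control fat pad.

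The ad libitum and restricted groups addressed whether the amount of milk replacer mattered. Neither miRNA passed in any tissue. In parenchyma miR-221 ran from 7324 to 9648 with a median of 8340 in the ad libitum group, and from 7789 to 9284 with a median of 8786 in the restricted group. The log2 fold change of ad libitum over restricted was -0.08, with a 95% confidence interval of -0.36 to 0.21 (limma adjusted p = 0.907). For miR-222 in parenchyma the ad libitum group ran from 1454 to 3055 with a median of 2420.5, and the restricted group from 1886 to 2908 with a median of 2494. The log2 fold change was -0.03 with an interval of -0.46 to 0.40 (limma adjusted p = 0.964). Of 333 miRNAs tested in parenchyma with limma, 0 passed, and 11 had an unadjusted p under 0.05.

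In the fat pad miR-221 ran from 3344 to 4797 with a median of 4022 in the ad libitum group, and from 2951 to 4437 with a median of 3905 in the restricted group. The log2 fold change was 0.07, with an interval of -0.21 to 0.35 (limma adjusted p = 0.710). miR-222 ran from 788 to 1357 with a median of 1212 in the ad libitum group, and from 808 to 1156 with a median of 1007 in the restricted group. Its log2 fold change was 0.21, with an interval of -0.09 to 0.51 (limma adjusted p = 0.320). The groups overlapped for both miRNAs, in a tissue where 16.4% of 305 miRNAs passed in this comparison and 8.52% had groups that did not overlap.

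In liver miR-221 ran from 762 to 2181 with a median of 1365 in the ad libitum group, and from 918 to 1830 with a median of 1470 in the restricted group. Its log2 fold change was -0.14, with an interval of -0.73 to 0.46 (limma adjusted p = 1.000). miR-222 ran from 155 to 365 with a median of 302 in the ad libitum group and from 166 to 915 with a median of 260 in the restricted group. Its log2 fold change was -0.22, with an interval of -1.03 to 0.59 (limma adjusted p = 1.000). Of 308 miRNAs tested in liver with limma, 0 passed and 12 had an unadjusted p under 0.05. The liver libraries were the shallowest, and the lowest value of miR-222 in the ad libitum group rested on 25 reads. The difference between ad libitum and restricted was also compared between tissues, and neither miRNA passed in any of these 3 comparisons.

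The milk replacer groups were next set against the control group within each tissue. In parenchyma miR-221 was 2.70-fold higher in the milk replacer groups, with a log2 fold change of 1.43 ± 0.24 (limma adjusted p = 0.000108). All 12 milk replacer samples, from 7324 upward, lay above the 3 control samples at 2758, 2086 and 5324. miR-222 was 1.90-fold higher, with a log2 fold change of 0.93 ± 0.27 (limma adjusted p = 0.00923). Its groups overlapped, since milk replacer samples began at 1454 and control replicate 18 had 1787. In this comparison 45.4% of 339 miRNAs passed, 30.1% as higher in the milk replacer groups, and 22.4% had groups that did not overlap. Of those that passed, 66.2% were higher, and 76.4% with libraries rescaled to the same sum. Without control replicate 2, the lowest sample for both miRNAs, miR-221 still passed at 1.14 (limma adjusted p = 0.000970), and miR-222 did not, at 0.66 (limma adjusted p = 0.0647).

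The control parenchyma samples were also those with few epithelial miRNAs, and the part of this in the difference was not tested. The summed epithelial normalized read counts were 421, 92.5 and 291 in control replicates 1, 2 and 18, with 3, 3 and 2 of the 10 miRNAs at 0, against 61371 to 110903 in the milk replacer samples. Replicates 1 and 2 had summed adipocyte-linked counts of 87368 and 85228, in the range of the fat pad. Replicate 18, the highest of the 3 for miR-221 and miR-222, had 9222, and its 7 immune miRNAs summed to 100531, against 5376 and 5059 in replicates 1 and 2. The endothelial sum was 426786, 172748 and 361392 in replicates 1, 2 and 18, above the 52569 to 106702 of the milk replacer samples. With 3 such control samples, feeding and tissue content cannot be told apart in parenchyma.

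**Figure D3:**
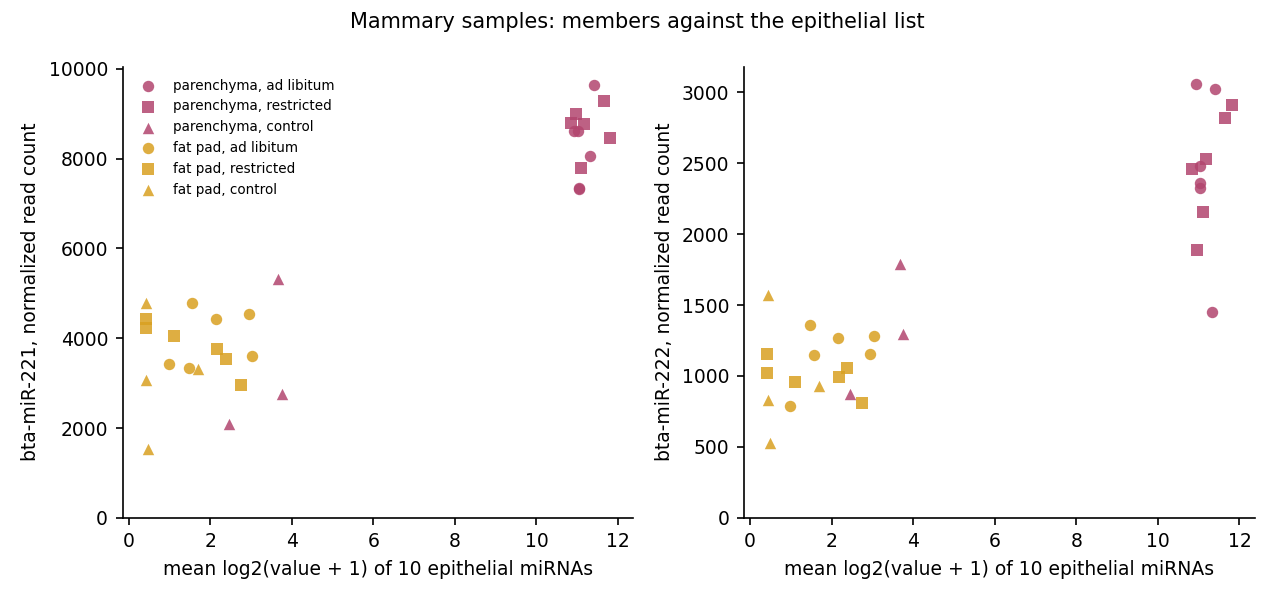
Normalized read counts of miR-221 (left) and miR-222 (right) in the 31 mammary samples against the mean log2(value + 1) of 10 epithelial miRNAs, with colour for the tissue and shape for the feeding group. The 3 control parenchyma samples lie between 2.46 and 3.76 on the horizontal axis, beside the fat pad samples, and the other parenchyma samples lie between 10.85 and 11.81.

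In the fat pad and in liver neither miRNA passed between the milk replacer and the control groups. In the fat pad the log2 fold changes were 0.40 with a 95% confidence interval of -0.03 to 0.83 for miR-221 (limma adjusted p = 0.185) and 0.26 with an interval of -0.17 to 0.69 for miR-222 (limma adjusted p = 0.392). The 4 control fat pad samples ran from 1539 to 4787 for miR-221 and from 524 to 1569 for miR-222. They went below the range of the milk replacer samples for both miRNAs, and for miR-222 also above it (788 to 1357). Control replicate 2 was the highest of the 4 for both miRNAs and replicate 21 the lowest for both. Without replicate 2, the log2 fold change of miR-221 was 0.64 and passed (limma adjusted p = 0.0422), and without replicate 21 it was 0.091 (limma adjusted p = 0.75). For miR-222 the log2 fold change ran from 0.0036 without replicate 21 to 0.53 without replicate 2, and it passed in neither case (limma adjusted p = 0.991 and 0.0565). Both miRNAs also passed with libraries rescaled to the same upper quartile, at 0.88 and 0.74 (limma adjusted p = 0.00579 and 0.0109), which moved the median of all miRNAs from -0.01 to 0.47. In this comparison 11.0% of 301 miRNAs passed and 3.99% had groups that did not overlap. In liver the log2 fold changes were 0.03 with an interval of -0.45 to 0.52 for miR-221 (limma adjusted p = 0.937) and 0.30 with an interval of -0.44 to 1.04 for miR-222 (limma adjusted p = 0.685), where 6.80% of 309 miRNAs passed and 2.91% had groups that did not overlap.

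Whether the milk replacer difference itself varied between tissues was tested over all 48 samples. For miR-221 the log2 fold change of milk replacer over control was larger in parenchyma than in the fat pad by 1.03 ± 0.33 (limma adjusted p = 0.0155), a comparison in which 25.8% of 345 miRNAs passed, 15.9% in that direction. It was smaller in liver than in parenchyma, with a difference of -1.4 ± 0.32 (limma adjusted p = 0.000335), where 40.3% of miRNAs passed, 23.2% in that direction. Of the miRNAs that passed in the first, 61.8% had the higher log2 fold change of milk replacer over control in parenchyma. Under rescaling to the same sum or upper quartile it was 73.6% and 30.6%. In the second, 42.4% had the higher log2 fold change of milk replacer over control in liver, and 22.7% and 28.3% under these rescalings. For miR-221 the first of these differences did not pass without control replicate 2 of parenchyma (0.74, limma adjusted p = 0.116) or without control replicate 2 of the fat pad (0.80, limma adjusted p = 0.0809). It did not pass either with libraries rescaled to the same upper quartile (0.46, limma adjusted p = 0.342), which moved the median of all miRNAs to -0.59. Both differences rest on the control parenchyma samples described above. For miR-222 the same differences were 0.67 ± 0.44 (limma adjusted p = 0.289) and -0.63 ± 0.43 (limma adjusted p = 0.251). Between liver and fat pad neither miRNA passed (-0.37 ± 0.30 for miR-221 and 0.04 ± 0.40 for miR-222), where 11.3% of miRNAs passed.

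The ratio of miR-221 to miR-222 within a library does not depend on its size factor. The log2 ratio was taken on log2(value + 1), so it depends on the size factor slightly where values are low. A ratio of different miRNAs can also carry unequal adaptor ligation, so it is read between samples and not as a ratio of molecules. miR-221 exceeded miR-222 in all 48 libraries, by 1.80 to 10.2 times, with a median of 3.66. The log2 ratio was 1.81 ± 0.29 (SD, n = 12) in parenchyma of the milk replacer groups, 1.86 ± 0.25 in the fat pad and 2.16 ± 0.57 in liver. The liver exceeded parenchyma by 0.35 ± 0.19 (SE, permutation test, two-sided, p = 0.0704, adjusted p = 0.317 over 9 ratio comparisons). It exceeded the fat pad by 0.30 ± 0.18 (permutation p = 0.110, adjusted p = 0.331), and parenchyma and fat pad differed by -0.05 ± 0.11 (permutation p = 0.647, adjusted p = 0.832).

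**Figure D4:**
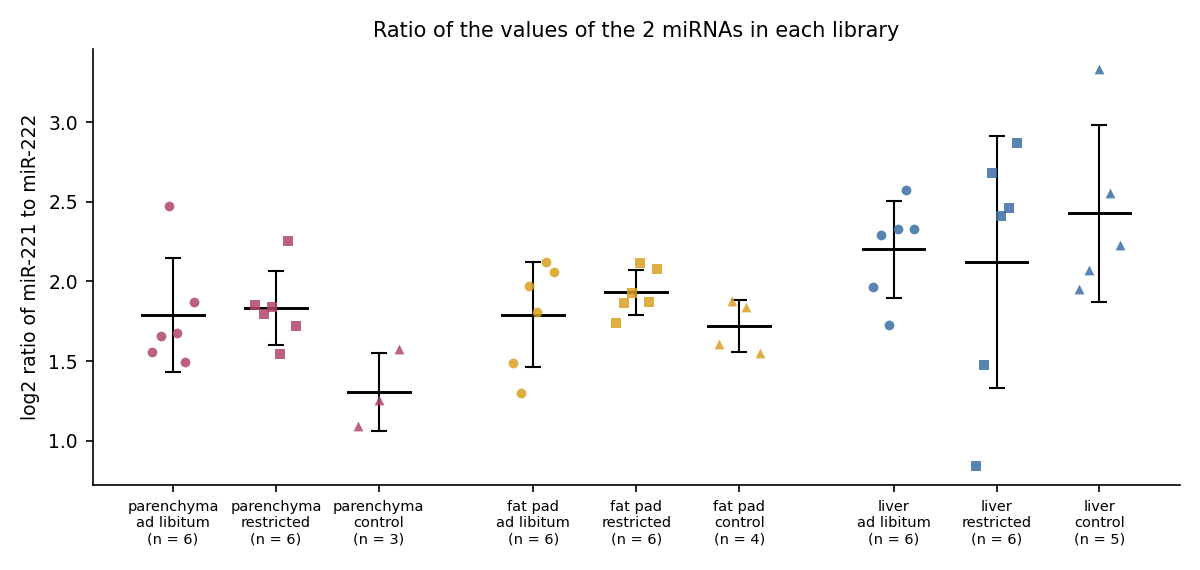
Log2 ratio of miR-221 to miR-222 in each library, with 1 point per sample in 9 groups, a line at the mean and bars of 1 SD. The 3 control parenchyma samples lie at 1.09, 1.26 and 1.57, and the restricted liver samples have the widest spread, from 0.84 to 2.87.

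The control parenchyma samples had the lowest mean log2 ratio of the 9 groups, 1.31 ± 0.25 (SD, n = 3). The milk replacer samples of parenchyma were 0.50 ± 0.16 (SE) higher, with an exact permutation p of 0.0176 and an adjusted p of 0.158. With 12 against 3 samples, the design limits how small an exact p can be, but the p found here lay above that limit. In the fat pad the milk replacer groups differed from control by 0.14 ± 0.11 (exact permutation p = 0.324, adjusted p = 0.598), and in liver by -0.26 ± 0.30 (exact permutation p = 0.399, adjusted p = 0.598). The differences between ad libitum and restricted were -0.04 in parenchyma, -0.14 in the fat pad and 0.08 in liver, with adjusted p-values of 0.598 to 0.833 in exact permutation tests.

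The share of miR-222 in the summed reads of the pair varied between libraries. miR-222 gave 15.3% of the summed reads of both miRNAs in ad libitum parenchyma replicate 7 (95% Wilson interval 14.7 to 15.8), against 17.3% to 26.2% in the other parenchyma samples of the milk replacer groups. In liver the share ran from 8.95% in control replicate 18 (interval 7.32 to 10.9) to 35.8% in restricted replicate 4 (interval 32.7 to 39.0). The intervals cover counting error only, because reads without molecular identifiers are not independent molecules. Restricted liver replicate 4 had miR-221 at 1644, within the range of the other restricted liver samples, and miR-222 at 915, above all other liver samples.

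Within a tissue, samples with more miR-221 tended to have more miR-222, but no correlation passed. Over the 12 milk replacer samples, r of the log2(value + 1) of both miRNAs was 0.344 in parenchyma (rho 0.378), 0.408 in the fat pad (rho 0.231) and 0.555 in liver (rho 0.531). Permutation p-values of r were 0.276, 0.187 and 0.0586, with adjusted values of 0.276, 0.276 and 0.176 over the 3 tissues, and those of rho were 0.230, 0.471 and 0.0792, with adjusted values of 0.345, 0.471 and 0.238. Without the 2 samples farthest from the median of miR-221, r was 0.526, 0.125 and 0.409. With each library rescaled to the same sum, r was 0.655, 0.609 and 0.626, and each passed with a permutation adjusted p of 0.0371. Both values of a library are divided by the same factor, so the scaling itself enters these correlations.

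**Figure D5:**
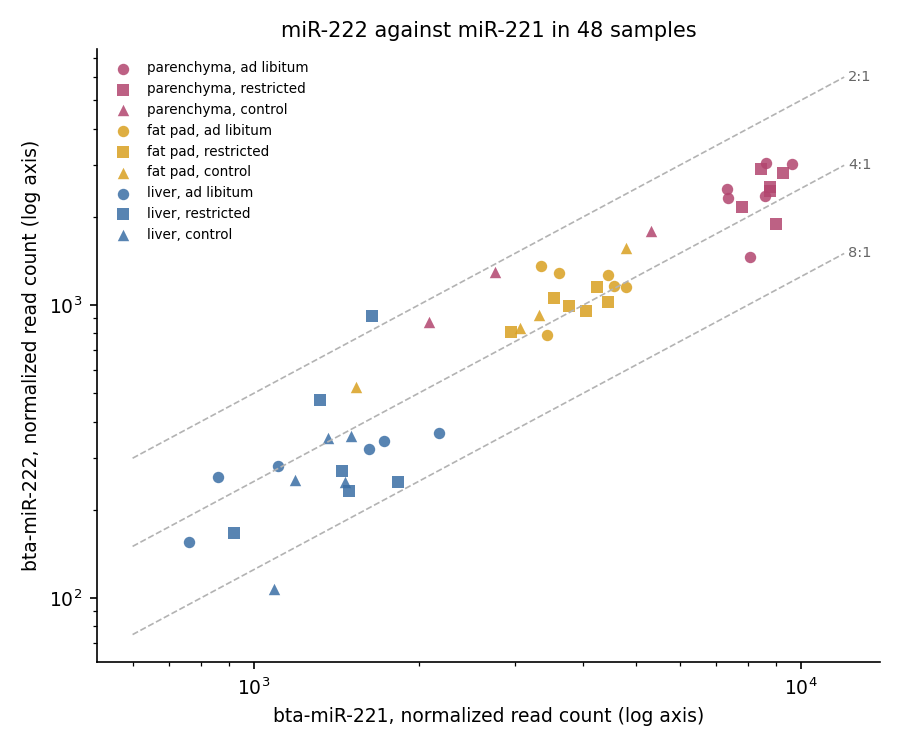
Normalized read counts of miR-222 against miR-221 in 48 samples on log axes, with colour for the tissue, shape for the feeding group and dashed lines at fixed ratios. The samples spread along a band between ratios of 1.80 and 10.2, with liver at the lower left and parenchyma of the milk replacer groups at the upper right.

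Among 267 other miRNAs with a mean of at least 50, the profile of miR-221 over the 9 group means was most like that of miR-665 (r = 0.993), followed by miR-222 (0.978), miR-132 (0.969), miR-99a-3p (0.966) and miR-218 (0.961). That of miR-222 was most like miR-218 (0.982), miR-199a-1-5p (0.981), miR-221 (0.978), miR-3120 (0.977) and miR-504 (0.977). These values mainly reflect the order of the tissues, and the points share the size factors of their libraries. Over the deviations of the 48 samples from their group means, miR-222 was the miRNA most like miR-221 (r = 0.613), ahead of miR-660 (0.566), miR-96 (0.547), miR-199c (0.509) and miR-106a (0.504). For miR-222, miR-760-3p came first (0.625), then miR-221 (0.613), miR-92b (0.588), miR-1307 (0.520) and miR-660 (0.485). Each miRNA of the pair was thus among the first 3 of 267 for the other in both lists. These correlations are descriptions.

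The other miRNAs of chromosome X were set beside the pair. RefSeq places 49 other miRNAs of the table on chromosome X only (493 of the 524 names matched). Some of them, such as let-7f-2 and miR-92a-2, share reads with copies elsewhere. The copies of miR-450a are both in this list and share reads with each other, so they are not separate measurements in the counts below. Between parenchyma and fat pad of the milk replacer groups, 38 were tested, of which 12 were higher (31.6%, beside 50.3% of all miRNAs tested) and 16 lower in parenchyma (42.1% beside 32.7%), with a median log2 fold change of -0.13 beside 0.37 over all miRNAs tested. Between liver and parenchyma 10 were higher in liver (26.3% beside 30.9%) and 19 lower (50% beside 45.5%), with a median of -0.55 beside -0.39. Between liver and fat pad 7 were higher in liver (18.4% beside 36.4%) and 18 lower (47.4% beside 40.1%), with a median of -0.53 beside -0.20. More of them were thus lower than higher in liver, which also held for all miRNAs tested. In parenchyma against fat pad the larger count went against the pair. The order of miR-221 and miR-222, with parenchyma over fat pad over liver in mean value, was shown by 8 of 38 such miRNAs (21.1%) and by 88 of all 345 miRNAs with a mean of at least 10 (25.5%).

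Individual miRNAs of chromosome X differed widely from the pair. miR-504, whose profile was listed above as like that of miR-222, had mean normalized read counts of 1033 ± 358 (SD, n = 12) in parenchyma, 134 ± 62.4 in the fat pad and 20.8 ± 28.4 in liver. No value above 0 came from under 6 reads, so this liver mean lies near the floor of the shallow liver libraries. miR-660 also followed the order, with 2427 ± 286, 1741 ± 175 and 1294.5 ± 325. miR-1468 was highest in the fat pad, with means of 814, 3648 and 274, and miR-505 was highest in liver, with means of 606, 211 and 3018. In parenchyma, where miR-221 and miR-222 were higher in the milk replacer groups than in control, 4 of 37 other miRNAs of chromosome X were higher (10.8%, beside 30.1% of all miRNAs tested) and 3 lower (8.11% beside 15.3%), with a median of -0.14 beside 0.13 over all miRNAs tested.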

How the data were processed

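Small RNA libraries of 48 bovine samples were analysed, which the authors made by adaptor ligation (NEBNext small RNA kit). Per the labels, bcl2fastq, FastQC, Trim Galore and the authors' DESeq2 were used, with no versions stated. The study names miRNA calling programs, miRBase and a cattle genome build for its own run on selected samples, but whether any of them made the deposited table is not given in the sources used here. In the deposited table each value is a read count that the authors divided by the size factor of its library. No value above 0 came from under 6 reads. The authors' mean, fold change and p-value columns were not used. miR-221 and miR-222, the lists and the comparisons were chosen with earlier results of these data known.

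Groups were compared with limma 3.58.1 (R 4.3.3) on log2(value + 1), with a variance trend and Benjamini-Hochberg adjustment (threshold 0.05) over all miRNAs whose mean in the fitted samples was at least 10. Tissue comparisons of the milk replacer samples had the feeding group as a term. The fits were tested on simulated data. Ratios and correlations were tested, two-sided, with exact permutation tests or 100000 resamples (scipy 1.17.1, Python 3.11.15). Named miRNAs are the pair, the 5 most like each, and list members that bear on them. Marker names that match numbered copies kept the copy with the highest mean. Each of 109 pairs of samples of a group differed by more than counting error. A count test was not run, since the recovery of whole reads could not be checked with the tool set for it. Alternatives changed the pseudocount, the filter, the scaling, the replicate block and single replicates. Mature sequences were not used here.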

Additional observations from a re-analysis of the deposited data

Results flagged for a closer look

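For miR-222, 1 sample lay far from the others of its group in 2 of 24 sets of values examined (groups of 4 to 6 samples, for miR-221, miR-222 and their log2 ratio), where chance gives such a gap in about 1 set in 20. Ad libitum parenchyma replicate 7 had 1454 normalized read counts of miR-222 (2566 reads), and the other 5 samples of its group had 2324 to 3055. On the log2 scale the gap to the nearest sample was 0.632 of the whole range, above the critical value of 0.625, and on the linear scale it was 0.544, below it. Ad libitum fat pad replicate 11 had 788, against 1148 to 1357 in the other 5, with a gap of 0.692 of the range on the log2 scale and 0.633 on the linear scale. miR-221 of these libraries, at 8067 and 3434, lay within the range of its group.

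For miR-221, the difference between milk replacer and control varied between tissues. It was 1.03 larger on the log2 scale in parenchyma than in the fat pad, and -1.40 for liver minus parenchyma. The first of these passed in 5 of 7 fits that left out a control sample. It did not pass with libraries rescaled to the same upper quartile. Both comparisons rest on the 3 control parenchyma samples with few epithelial miRNAs, and the part of that in them was not tested.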

How the results depend on the processing

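Direction and call of both miRNAs between tissues of the milk replacer samples held under each alternative, as did those of miR-221 for milk replacer against control parenchyma and its difference between liver and parenchyma. A pseudocount of 10 and no filter on low values changed neither for the pair, and 382 of 432 recomputed values kept both. Limits are the 3 to 5 control samples per tissue, the tissue content of control parenchyma, and the depth of liver, where 25 to 372 reads carry miR-222. The cause of changes was not tested.

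Rescaling libraries to a sum of 1000000 gave 0.0031 (miR-221) and 0.048 (miR-222) for ad libitum against restricted parenchyma, 0.029 (miR-221) for liver, -0.20 for miR-221 between milk replacer and control liver, 0.026 for miR-221 in the difference of ad libitum against restricted between liver and parenchyma, and -0.37 for miR-222 in the difference of milk replacer against control between liver and fat pad, all reversed and none passing. It made the same difference between liver and parenchyma pass for miR-222 (-1.19, limma adjusted p = 0.0276). The pair's correlations became 0.655, 0.609 and 0.626. Rescaling to the same upper quartile reversed miR-222 for ad libitum against restricted parenchyma (0.023), miR-221 for the fat pad (-0.016), both for milk replacer against control liver (-0.30 and -0.032), and miR-222 in the difference between liver and fat pad (-0.77). It made milk replacer against control fat pad pass (0.88 and 0.74) and miR-221 in the difference between liver and fat pad (-1.18, limma adjusted p = 0.00856), and ended the call of miR-221 in that between parenchyma and fat pad (0.46). With the control samples, chosen after seeing the data, the log2 ratio of liver exceeded that of parenchyma by 0.53 (permutation adjusted p = 0.0320).

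Replicate numbers recur across tissues with the same feeding label, and no label calls them animals. Same-numbered deviations correlated with medians of 0.18 (parenchyma and fat pad), 0.03 (liver and parenchyma) and 0.18 (liver and fat pad), beside -0.04, -0.01 and -0.05 for other numbers, over 0.1 in 12 of 14, 5 of 15 and 11 of 16 pairs, and 4, 1 and 3 samples correlated best with their own number. The reported fits have no block and treat same-numbered samples of different tissues as independent, which these correlations do not establish. Whether tissues share animals is not known. With the replicate block, control parenchyma against control fat pad gave -0.20 for miR-221, and control liver against control parenchyma gave -1.26 and -2.40 (limma adjusted p = 0.244 and 0.111), both no longer passing. It changed no other call of either. Calls went from 6 to 10 and 76 to 21 miRNAs in these 2.

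Leaving out single replicates gave, for miR-221, -0.29 to 0.38 in control parenchyma against control fat pad and -1.54 to -0.87 in control liver against control parenchyma. For ad libitum against restricted it gave -0.10 to 0.11 (miR-222, parenchyma), -0.0019 to 0.12 (miR-221, fat pad), -0.29 to 0.012 (miR-221, liver) and -0.41 to 0.083 (miR-222, liver). For milk replacer against control it gave 0.66 to 1.18 (miR-222, parenchyma), 0.091 to 0.64 (miR-221, fat pad) and -0.033 to 0.084 (miR-221, liver). Its differences were 0.74 to 1.41 (miR-221, parenchyma minus fat pad) and -0.25 to 0.30 (miR-222, liver minus fat pad). The log2 ratio of ad libitum against restricted (chosen after seeing the data) gave -0.18 to 0.039 (parenchyma) and -0.18 to 0.23 (liver). Counts of miRNAs called ran from 0 to 60 for control parenchyma against control fat pad (6 with all samples, and 3, 13 and 77 with a pseudocount of 10, no filter and the upper quartile), from 51 to 120 for control liver against control parenchyma (76 with all), from 28 to 61 for ad libitum against restricted fat pad (50 with all, 29 with the upper quartile), from 20 to 44 for milk replacer against control fat pad (33 with all, 117 with the upper quartile) and from 9 to 22 for liver (21 with all). For its difference between liver and fat pad they ran from 20 to 45 (39 with all, and 24, 80 and 23 with no filter, the upper quartile and the block). Tissue differences of ad libitum against restricted had 0 or 1.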
